A study of Homo sapiens with 12 samples.

Results

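SKOV-3, an established human epithelial ovarian adenocarcinoma cell line, was profiled by RNA-seq with KDM5A and KDM5B both knocked out, and as wild-type cells. The comparison described here is between 3 libraries of parental cells that carry the double knockout and 3 libraries of parental wild-type cells, neither of which is labelled as drug resistant. These 6 of the 12 libraries in the series were chosen by their labels and not by any measured value. The other 6 libraries, 3 from cisplatin-resistant SKOV-3 cells with the same double knockout and 3 from cisplatin-resistant wild-type cells, were used where a result needed a second background. The study is about KDM5 proteins and resistance to cisplatin, a platinum drug that damages DNA, and the parental comparison asks which transcripts differ in knockout cells that were not made resistant. The sources used here do not give how the knockout was made, or whether the knockout cells are a clone or a mixed population. Whether the 3 libraries of a group stem from separate cultures is not stated either, so every p-value reflects the spread among these libraries alone, and that spread may be technical.

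KDM5 proteins are histone demethylases that remove methyl groups from lysine 4 of histone H3, a mark that is found in its trimethylated form around active promoters. KDM5A and KDM5B act in large part at promoters, where they are mainly known as repressors, and KDM5C is a close paralog. In cancer cell lines KDM5A and KDM5B have been linked to drug-tolerant cell states, and in several tumour lines loss of KDM5 activity has been linked to higher expression of innate immune genes.

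Library totals ran from 17229982 to 19325271 counts in the double knockout and from 15987117 to 19706754 in the parental cells. Libraries that carried the same number varied together. Across 14437 genes, deviations from the group means correlated at 0.732, 0.862 and 0.855 between knockout and parental libraries of the same number, and between -0.561 and -0.227 where the numbers differed. Because deviations are centred within each group, positive values for the same number push the others negative, so those add no separate evidence. On the log2 scale the number took 78.4% of the sum of squares, the knockout 13.3% and the remainder 8.31%. The number was therefore used as a pair. Markers of epithelial ovarian carcinoma reached 1 CPM (counts scaled to library size, as a rate per 1e+06 counts) on average for 14 of 15 genes in the double knockout and for 13 of 15 in the parental cells, and no marker of endothelial, T and NK, B or erythroid cells did so in either group. Of the other marker lists, CD68 of the macrophage list and SYT1 of the neural list did so in both groups, and fibroblast markers are given beside the matrix genes.

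KDM5A (GRCh38 chromosome 12, 280129 to 389454, ENSG00000073614) had less transcript in knockout libraries. It measured 22.0, 19.9 and 15.2 CPM in double knockout libraries 1, 2 and 3, against 29.9, 39.4 and 38.1 CPM in parental libraries 1, 2 and 3. Every knockout library lay below every parental library, and transcript nonetheless remained in all 3. The paired log2 fold change was -0.91 ± 0.17 (SE, 3 pairs; edgeR quasi-likelihood test with Benjamini-Hochberg adjustment, adjusted p = 0.0111). Without the pairing the same change was -0.91 ± 0.25 with an edgeR adjusted p of 1.0. With the pairing but without both libraries numbered 2, KDM5A gave -0.88 with an edgeR adjusted p of 0.101, and without both numbered 3 it gave -0.70 with an adjusted p of 0.0576.

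KDM5B (ENSG00000117139, chromosome 1, 202724495 to 202809470) measured 56.0, 75.1 and 24.6 CPM in the double knockout, against 49.1, 75.6 and 41.6 CPM in parental cells. The groups overlapped, and number 3 was the only pair in which the knockout library was clearly lower. The paired log2 fold change of KDM5B was -0.18, with a 95% interval of -0.58 to 0.21 (edgeR adjusted p = 0.565). KDM5C, which the labels do not list as targeted, measured 179.9, 224 and 154 CPM in the double knockout, against 163, 216 and 165 CPM in parental cells. Its interval ran from -0.20 to 0.26 (edgeR adjusted p = 0.886). KDM5D did not pass the filter on low counts. RNA can still be made from a disrupted gene, and no protein was measured.

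**Figure D1:**
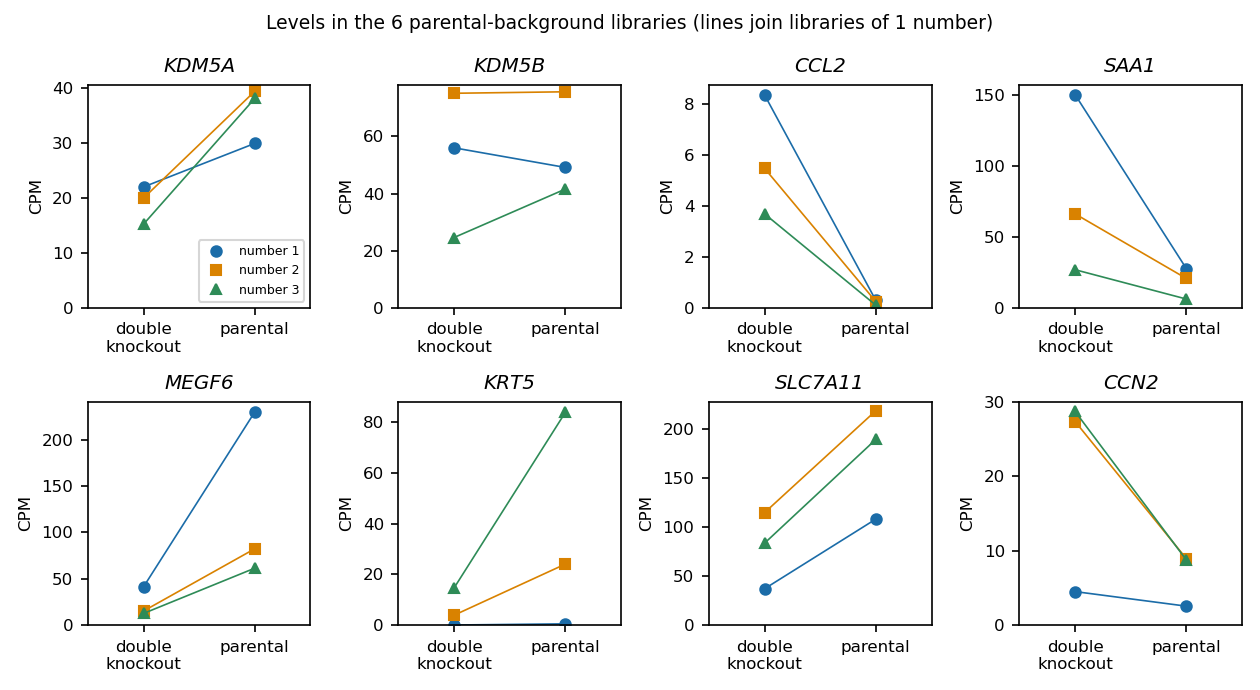
CPM (vertical axes, linear, from 0) of 8 genes in the 3 double knockout libraries (left of each panel) and the 3 parental libraries (right), with lines joining libraries of the same number. KDM5A was lower in all 3 knockout libraries, KDM5B was not, and the level of genes such as SAA1, MEGF6 and KRT5 depended on the number as well as on the knockout.

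With the pairing, 1206 of 15903 genes tested passed an adjusted p of 0.05 (7.58%), of which 553 were higher (3.48%) and 653 lower (4.11%) in the double knockout. Without the pairing none passed edgeR's test in the same 6 libraries, and 343 genes had an unadjusted p under 0.05, against 3918 with the pairing. Those 343 are fewer than the share of 0.05 that would fall there if no gene changed. All 1206 genes had the same sign in both fits, and their SE was a median of 2.57 times larger without the pairing. Most changes were modest: the median fold was 1.64 among the higher genes and 1.53 among the lower, and 184 higher and 105 lower genes changed at least 2-fold. CPM of the knockout and parental libraries did not overlap for 155 of the higher genes and 186 of the lower, while 6.53% of all genes tested did not overlap, 3.08% with higher and 3.45% with lower knockout libraries. In a fit of all 12 libraries with the number nested in background, 154 of 17947 genes passed in parental cells (0.858%), 77 in each direction (0.429%). The calls depended on the number 2 libraries most: without both of them 195 genes passed, without both numbered 3 490 passed and without both numbered 1 2469 passed.

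Of the 12908 protein-coding genes tested 442 were higher (3.42%) and 639 lower (4.95%). Of 1938 long noncoding RNAs 77 were higher (3.97%) and 12 lower (0.619%), and of 710 pseudogenes 22 were higher (3.1%) and 2 lower (0.282%). These shares are a description, and their differences were not tested.

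The largest increase in a protein-coding gene under the naming rule was in CCL2 (ENSG00000108691, chromosome 17, 34255218 to 34257203), a chemokine that attracts monocytes. CCL2 measured 8.36, 5.48 and 3.69 CPM in the double knockout, against 0.29, 0.24 and 0.10 CPM in parental cells. Each knockout library lay far above every parental one, and the differences within numbers 1, 2 and 3 were 4.45, 4.02 and 4.24 on the log2 scale. The parental levels are close to the added 0.1 CPM, so the size of these differences and their likeness depend on it. The paired log2 fold change was 4.77 ± 0.36 (SE; edgeR adjusted p = 7.17e-05).

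SAA1 and SAA2, serum amyloid A genes that encode acute-phase proteins, were also among the 12 named increases. SAA1 (chromosome 11, 18266174 to 18269977) measured 150.3, 66.2 and 26.8 CPM in the double knockout, against 27.6, 20.7 and 6.15 CPM in parental cells. Its groups overlapped, since the level also differed between numbers, yet within each number the knockout was higher by at least 1.68 on the log2 scale (log2 fold change 2.09 ± 0.15 SE, edgeR adjusted p = 7.17e-05). SAA2 measured 23.2, 10.4 and 5.09 CPM in the double knockout, against 3.81, 4.07 and 1.60 CPM in parental cells, without overlap (1.91 ± 0.26, edgeR adjusted p = 0.0029). SAA1 and SAA2 are close copies, and reads may have been shared between them.

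Other genes with large increases had varied roles. ANKRD1, a cardiac and muscle ankyrin repeat protein that is also a target of YAP signalling, measured 2.25, 24.6 and 1.40 CPM in the double knockout, against 0.81, 5.10 and 0.10 CPM in parental cells (log2 fold change 2.21 ± 0.32). GJA1, the gap junction protein connexin 43, measured 1.66, 4.86 and 24.7 CPM in the double knockout, against 0.52, 1.03 and 7.45 CPM in parental cells (1.86 ± 0.24). Both had the number as a strong source of variation, ANKRD1 being highest in number 2 and GJA1 in number 3 of either group. GDF6, a growth factor of the bone morphogenetic protein family, measured 2.40, 5.36 and 7.33 CPM in the double knockout, against 1.27, 1.03 and 1.00 CPM in parental cells (2.08 ± 0.37), with no overlap. PSG5, a pregnancy-specific glycoprotein with near-identical family members, changed by 2.72 ± 0.50, MLLT11 by 1.81 ± 0.17, TMEM130 by 1.79 ± 0.22 and CCDC80 by 1.77 ± 0.26.

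Both remaining genes of the 12 named increases are known from germ cells. SHOC1, which takes part in meiotic crossover formation, measured 53.3, 34.4 and 8.84 CPM in the double knockout, against 13.8, 10.7 and 4.35 CPM in parental cells (log2 fold change 1.59 ± 0.18, edgeR adjusted p = 0.0011). TEX19, a germline protein studied mostly in mouse, measured 7.24, 5.66 and 6.54 CPM in the double knockout, against 1.96, 1.52 and 3.10 CPM in parental cells (1.59 ± 0.26, edgeR adjusted p = 0.0058). TEX19 showed no overlap, while SHOC1 in knockout library 3 lay below parental libraries 1 and 2. Of 30 listed cancer-testis and germline genes, a list that holds neither SHOC1 nor TEX19, 3 had enough reads to test and none passed.

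Of the 12 named decreases, the one with the smallest SE was in MEGF6 (ENSG00000162591, chromosome 1, 3489920 to 3611495), a protein with epidermal growth factor-like repeats. MEGF6 measured 41.3, 15.1 and 12.5 CPM in the double knockout, against 230.1, 82.4 and 61.4 CPM in parental cells. The groups did not overlap, and the differences within numbers were nearly equal, at -2.47, -2.44 and -2.29 on the log2 scale. The paired log2 fold change was -2.41 ± 0.12 (SE; edgeR adjusted p = 1.15e-06).

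KRT5, a keratin of basal epithelial cells, had 0 reads in knockout library 1 and measured 3.88 and 14.7 CPM in knockout libraries 2 and 3, against 0.46, 24.1 and 83.9 CPM in parental cells. Its change thus rested on numbers 2 and 3, since the difference within number 1 is set by the added 0.1 CPM (log2 fold change -2.61 ± 0.21, edgeR adjusted p = 7.17e-05). TNFRSF11B, the decoy receptor osteoprotegerin, measured 0.29, 14.2 and 14.4 CPM in the double knockout, against 1.90, 32.6 and 70.2 CPM in parental cells (-1.84 ± 0.25). FZD8, a Wnt receptor, measured 4.16, 3.69 and 5.31 CPM in the double knockout, against 10.1, 18.2 and 15.3 CPM in parental cells (-1.69 ± 0.22), with no overlap. ESPN, an actin-bundling protein, measured 3.03, 2.96 and 9.06 CPM in the double knockout, against 19.5, 9.11 and 21.7 CPM in parental cells (-1.83 ± 0.27).

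The other named decreases were in the sialyltransferase ST8SIA4 (-2.40 ± 0.31), the actin nucleator COBL (-2.05 ± 0.25), the urea transporter SLC14A1 (-2.02 ± 0.34), the neuronal adhesion molecule NEGR1 (-2.0 ± 0.27), the matrix metalloproteinase MMP10 (-1.85 ± 0.34), the phosphodiesterase PDE3A (-1.78 ± 0.22) and HR, a nuclear protein of the hair follicle that is itself a histone demethylase (-1.64 ± 0.19). ST8SIA4, SLC14A1 and MMP10 reached a parental mean of 5 CPM only through parental library 3, at 19.2, 14.75 and 21.45 CPM. In parental libraries 1 and 2 none of these genes exceeded 2.25 CPM. The edgeR adjusted p-values of the 12 named decreases ran from 1.15e-06 for MEGF6 to 0.0111 for MMP10. Of these 12 genes 5 showed no overlap between groups, and of the 12 named increases 6 showed none, against 6.53% of all genes tested. The naming rule, by size of change and the same sign in all pairs, favours genes without overlap.

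**Figure D2:**
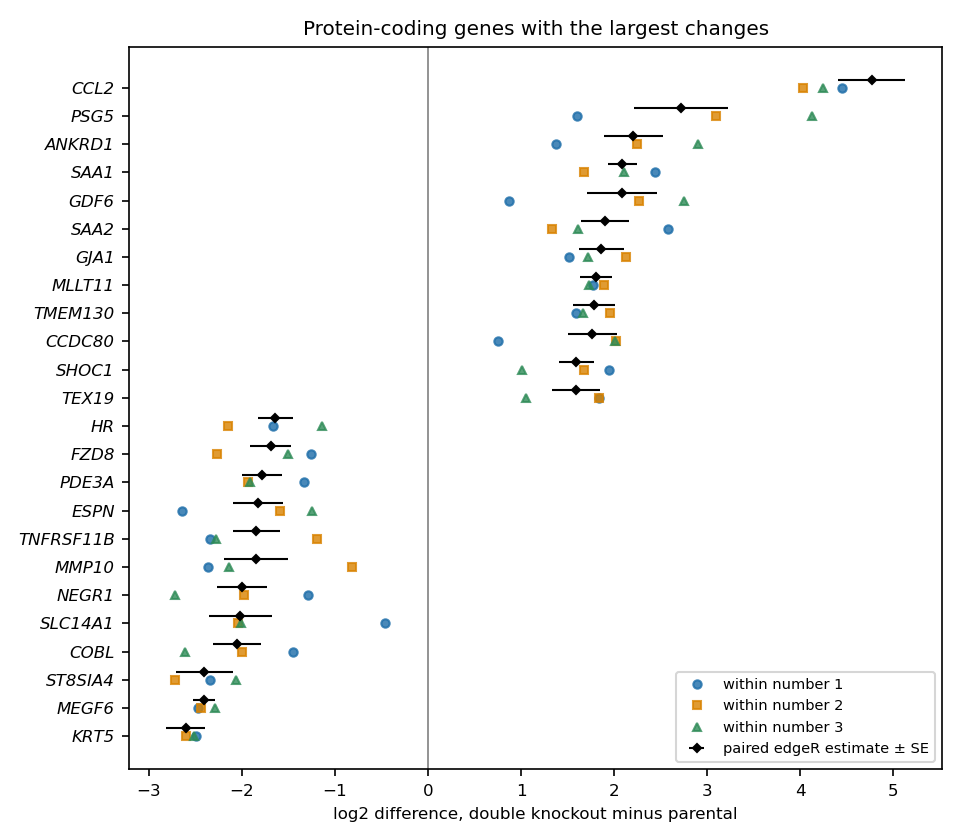
Log2 difference, double knockout minus parental, of 24 protein-coding genes (rows): coloured symbols are the differences within numbers 1, 2 and 3 of CPM plus 0.1, and black diamonds with bars the paired edgeR estimates ± SE. The naming rule required 3 differences of the same sign, and they lie close together for MLLT11 and MEGF6 and far apart for PSG5; the number 1 value of KRT5 rests on 0 reads in the knockout library and on the added 0.1 CPM.

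Of noncoding genes, the olfactory receptor pseudogene OR7E19P had the largest named increase, with 23.1, 33.4 and 2.57 CPM in the double knockout, against 3.40, 1.58 and 0.15 CPM in parental cells (log2 fold change 3.55 ± 0.33). HIF1A-AS3, antisense to HIF1A, changed by 2.59 ± 0.28 and AC027117.1 by 2.55 ± 0.27. MIR100HG, the host transcript of a microRNA cluster, measured 6.31, 23.0 and 22.5 CPM in the double knockout, against 17.9, 72.8 and 49.6 CPM in parental cells (-1.43 ± 0.14). BX640514.2 changed by -1.99 ± 0.20 and LINC02432 by -1.05 ± 0.18. Pseudogenes and antisense genes may share reads with related or overlapping genes.

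Acute-phase and complement genes, secreted proteins of the innate response, were the inflammatory group with most calls. Of 14 tested genes 6 were higher and none lower, against 3.48% higher and 4.11% lower of all genes. Their median log2 fold change was 0.57, against 0.00 over all genes tested. Beside SAA1 and SAA2, LCN2, an iron-siderophore binding protein, measured 916, 313 and 109.9 CPM in the double knockout, against 511, 212 and 57.6 CPM in parental cells (0.78 ± 0.11, edgeR adjusted p = 0.0031). SAA4 measured 6.11, 2.34 and 0.95 CPM in the double knockout, against 1.67, 0.67 and 0.40 CPM in parental cells (1.70 ± 0.33). The central complement component C3 also passed (0.49 ± 0.11). Without both libraries numbered 2, 3 genes of the list passed as higher.

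The cytokine and chemokine list did not move as CCL2 did. CCL2 alone passed of 15 tested genes, and the median of 0.51 hid differences between numbers, with medians of 0.25, 1.09 and -0.17 within numbers 1, 2 and 3. IL6, a cytokine that drives the acute-phase response, measured 180.3, 533 and 15.5 CPM in the double knockout, against 165, 191 and 17.6 CPM in parental cells (edgeR adjusted p = 0.542). CXCL8, a neutrophil chemokine, measured 481, 2130 and 21.5 CPM in the double knockout, against 221, 749.8 and 51.0 CPM in parental cells (edgeR adjusted p = 0.752). In both, number 2 was the pair with the largest rise and number 3 was lower in the knockout. IL6 and CXCL8 were named after their values were seen. Of 21 NF-kB subunits, feedback inhibitors and targets, 2 were higher, the subunit NFKB2 (0.57 ± 0.13) and the inhibitor NFKBIZ (0.88 ± 0.20). That count is near the 7.58% of all genes that passed.

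Interferon-stimulated genes and antigen presentation genes have been linked to KDM5 loss elsewhere. Of 43 interferon-stimulated genes 1 was higher and 3 lower, and the median log2 fold change was -0.27, with 30 of 43 below 0. The count is near the 7.58% of all genes that passed, and the medians within numbers 1, 2 and 3 were -0.41, -0.0049 and 0.05. Parental library 1 stood apart in members that did not pass the filter on low counts: RSAD2 measured 37.0 CPM and OASL 20.1 CPM there, and both lay under 0.5 CPM in each of the other 5 libraries. Both were named after their values were seen, and the part of that library in the list's median was not tested. STAT2, a transcription factor of the interferon response, measured 183, 33.9 and 89.4 CPM in the double knockout, against 88.2, 25.6 and 61.9 CPM in parental cells (0.67 ± 0.14, edgeR adjusted p = 0.0155). SAMD9, an antiviral factor, measured 15.5, 9.11 and 57.9 CPM in the double knockout, against 25.1, 18.9 and 95.4 CPM in parental cells (-0.81 ± 0.13, edgeR adjusted p = 0.0053). OAS3, a double-stranded RNA sensor that makes oligoadenylates, measured 32.8, 15.2 and 53.6 CPM in the double knockout, against 48.4, 20.2 and 69.5 CPM in parental cells (-0.45 ± 0.12, edgeR adjusted p = 0.0424). USP18, a negative regulator of interferon signalling, measured 0.44, 0.31 and 0.62 CPM in the double knockout, against 1.56, 0.61 and 1.75 CPM in parental cells (-1.49 ± 0.41). None of 20 antigen presentation genes passed.

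Promoters of the named inflammatory and interferon genes were searched for 2 motifs on both strands, the interferon-response type, made of GAAA, any 2 bases and GAAA, and the NF-kB type, GGNNTTTCC, in 250 bases before to 50 after the gene start in RefSeq on GRCh38.p14. Of 11 genes wanted, 5 had a promoter in the table: LCN2, SAA4, SAMD9, STAT2 and OAS3. The interferon-response motif was found in SAMD9 and OAS3, and in 3.57% of 35116 promoters in the whole table. The NF-kB motif was found in OAS3, apart from the other motif, and in 6.26% of all promoters. SAMD9 (chr7:93117930-93118229, minus strand) and OAS3 (chr12:112938224-112938523, plus strand) are shown because they are the interferon genes with a match, and both were lower in the double knockout; capitals mark the motifs, with GGAATTTCC in OAS3 being the NF-kB type. A match describes letters and does not show a site in use.
SAMD9: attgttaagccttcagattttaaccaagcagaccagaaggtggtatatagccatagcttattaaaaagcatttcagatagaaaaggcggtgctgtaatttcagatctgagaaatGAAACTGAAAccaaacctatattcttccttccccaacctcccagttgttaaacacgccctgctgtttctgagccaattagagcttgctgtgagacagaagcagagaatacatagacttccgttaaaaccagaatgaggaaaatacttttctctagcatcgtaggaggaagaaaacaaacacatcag
OAS3: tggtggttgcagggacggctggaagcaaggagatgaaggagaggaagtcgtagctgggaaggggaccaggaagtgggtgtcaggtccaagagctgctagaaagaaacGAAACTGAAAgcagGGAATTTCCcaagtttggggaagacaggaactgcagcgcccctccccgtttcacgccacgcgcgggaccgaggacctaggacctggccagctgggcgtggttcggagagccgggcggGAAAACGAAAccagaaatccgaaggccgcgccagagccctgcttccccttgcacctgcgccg

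Calls in the keratin and epithelial junction lists were all decreases, and mesenchymal and matrix genes passed in both directions. Their counts are read against 3.48% higher and 4.11% lower of all genes tested. Of 11 keratins 3 were lower and none higher: KRT5, the epithelial keratin KRT80, with 720, 1599 and 319 CPM in the double knockout against 1163, 2754 and 620.3 CPM in parental cells (-0.81 ± 0.11), and KRT16 (-1.73 ± 0.41). Of 27 epithelial junction genes 3 were lower, the tight junction protein OCLN (-0.95 ± 0.15) and the desmosomal proteins DSG2 (-0.72 ± 0.11) and DSP (-0.48 ± 0.11). The junction list as a whole lay near 0, with 14 of 27 genes above 0 and a median of 0.02. Of 17 genes of the epithelial-mesenchymal transition list, TAGLN was higher (0.73 ± 0.20), and the intermediate filament VIM (-0.54 ± 0.13) and the gelatinase MMP2 (-0.72 ± 0.20) were lower. OCLN measured 9.05, 16.3 and 11.2 CPM in the double knockout, against 18.6, 26.4 and 24.7 CPM in parental cells, with no overlap. WFDC2, of the epithelial ovarian carcinoma markers, went the other way and passed as higher. It measured 14.3, 6.65 and 4.92 CPM in the double knockout, against 4.50, 3.71 and 3.30 CPM in parental cells. WFDC2 was named after its values were seen.

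Extracellular matrix genes had 7 higher and 5 lower of 28 tested, the list with most calls by count, against 3.48% higher and 4.11% lower of all genes. CCN2, a matricellular protein, measured 4.50, 27.4 and 28.7 CPM in the double knockout, against 2.54, 8.93 and 8.75 CPM in parental cells (1.45 ± 0.20, edgeR adjusted p = 0.0023). CCN1, of the same family, measured 246, 631 and 185 CPM in the double knockout, against 135, 167 and 58.3 CPM in parental cells (1.48 ± 0.21). LUM, the proteoglycan lumican, measured 0.29, 2.52 and 9.95 CPM in the double knockout, against 0.12, 0.12 and 0.65 CPM in parental cells (3.72 ± 0.46, edgeR adjusted p = 0.0013). So few parental reads leave the size of the LUM change uncertain. The remaining higher members were MMP14, COL1A1, MMP7 and COL8A1.

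Among the lower matrix genes, COL12A1, a fibril-associated collagen, measured 116, 345 and 350.4 CPM in the double knockout, against 229.5, 573 and 661 CPM in parental cells (-0.88 ± 0.11). The fibrillin FBN1 followed at -0.93 ± 0.13, and MMP10, MMP1 and LAMA5 were the other lower members. CCN1 and the members listed without values were named after their values were seen. LUM and COL1A1 also stand in a list of 9 fibroblast markers, whose summed level was 2.49 to 27.9 CPM in the double knockout and 1.90 to 8.50 CPM in parental cells. Of that list 3 genes reached 1 CPM on average in the double knockout and 1 in parental cells, while COL3A1 had under 0.1 CPM in every library; the part of other cells in these changes was not tested. Of the matrix list 12 higher and 7 lower genes passed without both libraries numbered 1, 4 and 6 without both numbered 2, and 2 and 3 without both numbered 3.

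All calls among the listed stress-response and immediate early genes were decreases. Of 29 genes of the unfolded protein and integrated stress response 6 were lower and none higher, against 4.11% lower of all genes tested. In this list 25 of 29 lay below 0, with a median of -0.22. SLC7A11, the cystine importer that feeds glutathione synthesis, measured 37.0, 115 and 83.5 CPM in the double knockout, against 108, 219 and 189 CPM in parental cells (-1.21 ± 0.13, edgeR adjusted p = 0.00057). SLC7A5, a transporter of large neutral amino acids, measured 1373, 2214 and 1141 CPM in the double knockout, against 2207, 3556 and 1744 CPM in parental cells (-0.66 ± 0.11). DNAJC3 and HYOU1, chaperone-system proteins of the endoplasmic reticulum, changed by -0.71 ± 0.13 and -0.48 ± 0.10. The serine synthesis enzyme PSAT1 (-0.53 ± 0.12) and SESN2 (-0.58 ± 0.13) completed the 6, both named after their values were seen. Without both libraries numbered 3, 2 genes of the list passed as lower.

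Of 22 AP-1 and immediate early genes 5 were lower and none higher, with a median of -0.33, against 4.11% lower of all genes tested. In this list 7 of 22 lay above 0, and the medians within numbers 1, 2 and 3 were -0.44, -0.06 and -0.44. Among the 5 lower genes DUSP6 and SPRY2 are feedback inhibitors of ERK signalling and ETV5 is a transcription factor downstream of it. DUSP6 measured 1.57, 3.57 and 1.40 CPM in the double knockout, against 4.21, 10.2 and 5.20 CPM in parental cells, with no overlap (-1.60 ± 0.24, edgeR adjusted p = 0.0039). SPRY2 changed by -0.90 ± 0.14 and ETV5 by -0.95 ± 0.15. The AP-1 subunit JUNB changed by -0.55 ± 0.11, and KLF4, another member, named after its values were seen, by -1.23 ± 0.23. Without both libraries numbered 2, 3 genes of the list passed as lower.

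The counts in lists tied to the cell cycle are read against the 7.58% of all genes that passed. CDKN1A, the p21 inhibitor of cyclin-dependent kinases, was among the clearer decreases, with 11.1, 31.8 and 6.21 CPM in the double knockout, against 30.1, 57.5 and 20.7 CPM in parental cells (-1.32 ± 0.17, edgeR adjusted p = 0.0023). It was the only lower gene of 24 p53 targets, and the exonuclease AEN was the only higher one (0.53 ± 0.13). Of 36 mitosis genes 3 were lower, the phosphatase CDC25B (-0.68 ± 0.11), TOP2A (-0.49 ± 0.12) and CENPE (-0.62 ± 0.16); 33 of 36 lay below 0, and the median was -0.65, -0.11 and 0.04 within numbers 1, 2 and 3. Of 42 replication genes the licensing factor CDC6 was the only higher one (0.41 ± 0.11).

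Lists that bear on drug handling are read against the same 7.58%. Of 19 platinum transport and metallothionein genes, none was higher and 2 were lower, the volume-regulated anion channel subunit LRRC8A, with 31.4, 47.8 and 63.6 CPM in the double knockout against 55.6, 77.2 and 74.1 CPM in parental cells (-0.58 ± 0.13), and the efflux pump ABCC3 (-0.48 ± 0.12). Of 28 NRF2 and glutathione genes, the aldo-keto reductase AKR1B1, with 1188, 2654 and 1712 CPM in the double knockout against 759.5, 1332 and 1015 CPM in parental cells (0.80 ± 0.12), and the haem oxygenase HMOX1 (0.94 ± 0.16) were higher. Of 16 aldehyde dehydrogenases ALDH3A1 (-1.72 ± 0.33) and ALDH3B1 (-0.53 ± 0.12) were lower. Of 30 hypoxia and glycolysis genes the peptide hormone ADM was the only one that passed, with 44.1, 20.7 and 13.3 CPM in the double knockout, against 21.3, 8.32 and 6.35 CPM in parental cells (1.14 ± 0.15). Of 19 other H3K4 demethylases and methyltransferases, the methyltransferase SETD7 (-0.53 ± 0.12), RIOX1 (-0.45 ± 0.11) and the methyltransferase complex subunit ASH2L (-0.54 ± 0.14) were lower. Cholesterol synthesis genes had 2 higher, FDPS and EBP, and 1 lower of 25, and none of 48 ribosomal protein genes or 7 histone genes passed. All 7 histone genes nonetheless lay below 0, with a median of -0.37, while 31 of 48 ribosomal protein genes lay above 0, with a median of 0.05.

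**Figure D3:**
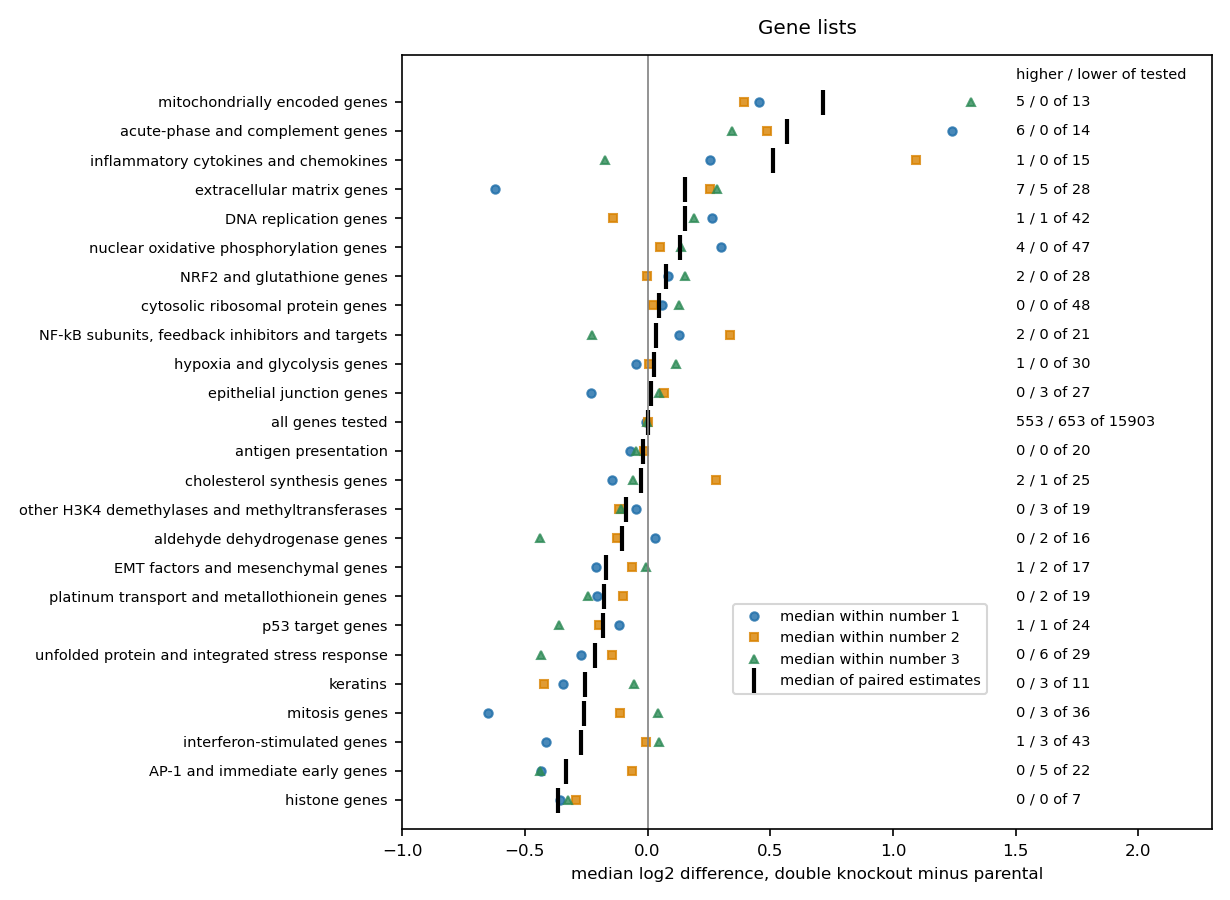
Median log2 difference, double knockout minus parental, of each gene list (rows): coloured symbols within numbers 1, 2 and 3, black bars the median of the paired estimates, with the count of higher and lower genes of those tested at the right. Lists of fewer than 7 tested genes are left out; acute-phase and mitochondrially encoded genes lie above 0 in all 3 numbers, and the cytokine list does not.

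Mitochondrially encoded genes, which encode core subunits of the respiratory chain, had calls in 1 direction. All 13 had a log2 fold change above 0 and 5 passed, with a median of 0.71; MT-ND3, for example, measured 1368, 1118 and 2301 CPM in the double knockout, against 825, 656 and 779 CPM in parental cells (1.02 ± 0.17, edgeR adjusted p = 0.0111). They took 10.7%, 6.54% and 16.3% of all counts in the double knockout, against 7.75%, 5.34% and 7.55% in parental cells. The share was higher in the knockout within each number, by 2.93, 1.20 and 8.78 percentage points, with a mean of 4.30. Neither exact two-sided test could reach 0.05 at this size: flipping signs within pairs gave p = 0.25, the smallest it can give, and permuting the 6 libraries gave p = 0.3, where 0.1 is the smallest possible. Leaving out libraries moved the difference, and without both libraries numbered 3 it was 2.07. Without both libraries numbered 2, 1 of the 13 genes passed, and without both numbered 1 all 13 did. Of 47 nuclear oxidative phosphorylation genes 4 were higher, CYC1 (0.53 ± 0.11), NDUFA6 (0.46 ± 0.11), NDUFB9 (0.41 ± 0.11) and UQCRB (0.38 ± 0.10), and 43 lay above 0. Both counts of higher genes are read against 3.48% higher of all genes tested.

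Transcript length moved with the direction of change. The longest annotated transcript had a median of 2784 bases among the higher genes and 5345 among the lower, against 3275 over all genes tested, and median GC content was 51.9% among the higher, 45.3% among the lower and 48.5% over all. Across 5 equal bins of genes by length the median log2 fold change was 0.14, 0.06, 0.00, -0.06 and -0.14 from the shortest to the longest, and the same order held within each number. Lower genes were 0.603% of the shortest bin and 9.49% of the longest. The order was alike in resistant cells, where the median was 0.20 in the shortest bin and -0.12 in the longest. After offsets for length and GC content, added after the data were seen and fitted with the pairing, 793 genes passed, 407 higher and 386 lower, of which 711 were among the 1206.

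The offsets left all 24 named protein-coding genes, KDM5A and the 6 acute-phase genes past the threshold. They left 1 of the 5 mitochondrially encoded genes, 2 of the 4 nuclear oxidative phosphorylation genes, 1 of the 3 mitosis genes, 1 of the 3 lower interferon-stimulated genes and neither NF-kB gene. Of the stress-response list 5 genes then passed as lower, and of the AP-1 list 8. The part of RNA quality or fragment size in this pattern was not tested.

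**Figure D4:**
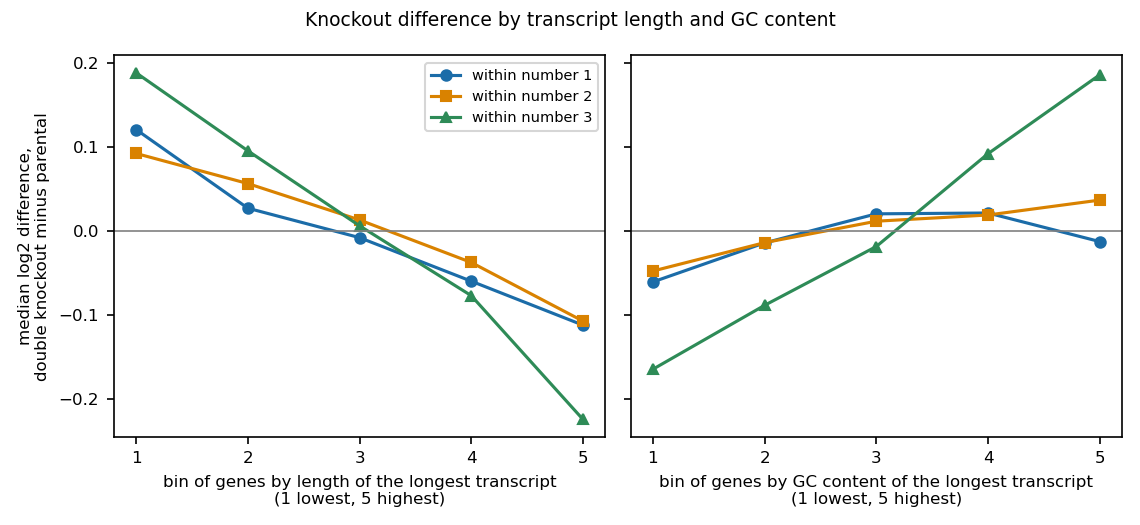
Median log2 difference, double knockout minus parental, by bin of genes, 5 equal bins ordered by the length (left) or GC content (right) of the longest transcript, with 1 line for each number. The median falls with length in all 3 numbers, and its course with GC content is steepest in number 3.

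The share of genes that passed differed between chromosomes, of which 2 are given here, chosen after their values were seen. Chromosome 4 held 57 lower and 4 higher of 557 genes tested (10.2% and 0.718%), and chromosome 19 held 11 lower and 80 higher of 1259 (0.874% and 6.35%). Median transcript length was 3781 bases on chromosome 4 and 2692 on chromosome 19, and its part in the difference was not tested.

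The same knockout in resistant cells, which shares no library with the parental comparison, gave a second reading of these genes. The numbers did not pair the resistant libraries, with correlations of 0.624, -0.241 and 0.706, so the resistant values below, from a fit with a block for the number, carry less weight than the parental ones. With that block 939 of 17947 genes passed in resistant cells (5.23%), 608 higher (3.39%) and 331 lower (1.84%), and without it 38 did. Of the 553 genes higher in parental cells, 63.5% had a log2 fold change above 0 in resistant cells, against 52.6% of all genes, and 48 passed as higher there and 12 as lower. Of the 653 lower genes, 49 passed as lower in resistant cells and 36 as higher. Among genes tested in both, 2.85% passed as higher and 1.9% as lower in resistant cells.

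Named genes fell on both sides. KDM5A was lower in both backgrounds (-1.35 in resistant cells, edgeR adjusted p = 0.00126 with the block and 0.0524 without it). SAA1 (2.82), LCN2 (3.41), LUM (3.52) and TEX19 (1.91) were also higher in resistant cells with the block, and OCLN (-1.15), MMP10 (-2.19), DNAJC3 (-1.27), HYOU1 (-1.29) and ETV5 (-0.76) were also lower. ADM (-1.63) and CCDC80 (-1.0), higher in parental knockout cells, were lower in resistant ones, while ST8SIA4 (2.16), BX640514.2 (3.08) and JUNB (0.98), lower in parental knockout cells, were higher. These 15 of 89 named genes passed with the block, and none passed without it. With the block, 13 genes of the stress-response list were lower and 1 higher in resistant cells, and of the acute-phase list 7 were higher and 1 lower. Some other lists also repeated the parental direction with the block. Platinum transport and metallothionein genes had 0 higher and 3 lower genes in resistant cells, and NRF2 and glutathione genes 4 higher and 0 lower. The following lists did not repeat it. Keratins had 3 higher and 0 lower genes in resistant cells. Mitochondrially encoded genes had no calls there and a median of -0.18, and mitosis genes had a median of 0.31 with 1 higher and 0 lower.

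**Figure D5:**
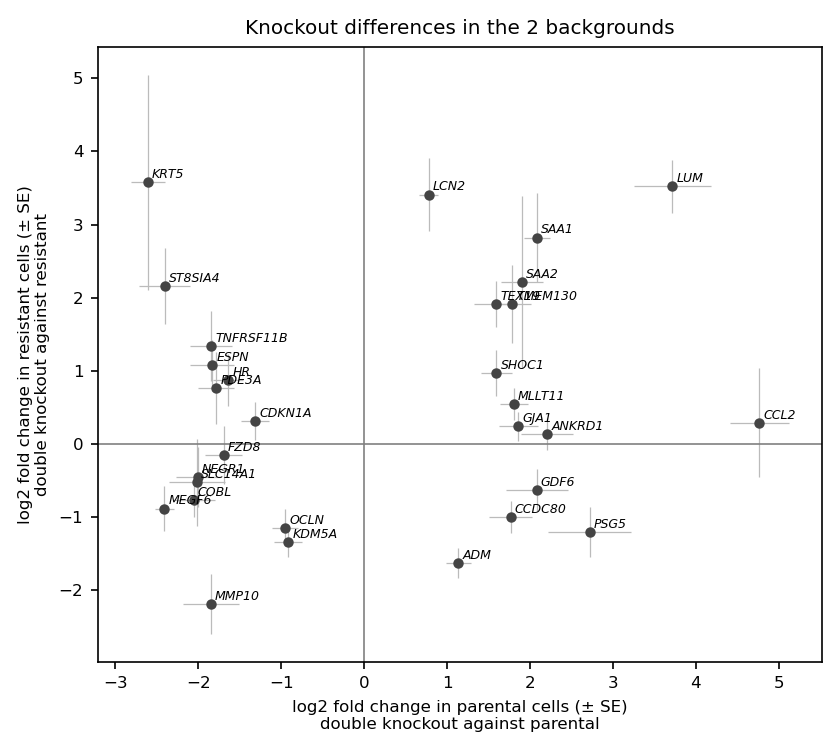
Log2 fold change of 30 named genes in parental cells (horizontal axis, double knockout against parental, paired) and in resistant cells (vertical axis, double knockout against resistant, fit with a block), each ± SE. SAA1 and LUM lie above 2 on both axes, LCN2 does so in resistant cells only, CCL2 lies near 0 in resistant cells, and KRT5 lies on opposite sides of 0 with a wide error in resistant cells.

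The difference between the 2 knockout effects itself passed for 274 of 17947 genes with the block (1.53%), 64 in the positive (0.357%) and 210 in the negative direction (1.17%), and for 5 without it. It passed with the block for 51 of the 553 higher genes and 71 of the 653 lower ones, so for the other 502 and 582 a difference between backgrounds was not shown.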

How the data were processed

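RNA was measured in 12 libraries in 4 groups of 3, of which 6 enter the main comparison; groups and numbers came from the sample titles. Per the labels' protocols, poly(A) RNA libraries were made from 500 ng of total RNA with a kit that keeps strand. The authors deposited raw counts of reads for each gene. The tools named, per the submitters' processing notes, are featureCounts 2.0.1, STAR 2.7.10a and Trim Galore 0.6.10, with build GRCh38; the sources used here give neither annotation nor strand setting nor how multiply matching reads were treated, so overlapping, antisense or near-identical genes may share reads. The deposited table held 59542 rows, of which 44 identifiers stood on 2 rows with 0 reads. Coordinates and biotypes were taken from GENCODE 29 (GRCh38); 57380 of 59498 identifiers, with 99.95% of counts, are in it.

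From the deposited counts the following was computed. The 6 libraries were filtered with filterByExpr, scaled with TMM and tested with the quasi-likelihood test (robust) of edgeR 4.0.16 in R 4.3.3, with the number as a block and Benjamini-Hochberg adjustment over all 15903 genes at 0.05. The pairing rests on the correlation of same-numbered libraries, which was above 0.1 for all 3 pairs. The resistant comparison and the difference of effects used all 12 libraries with the number nested in background. CPM are counts divided by the TMM-scaled library size; differences within a number add 0.1 CPM. For a log2 fold change, SE was taken as its absolute size over the square root of F. The script was tested on simulated data.

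Named genes were the 12 largest increases and 12 largest decreases among protein-coding genes that passed, reached a mean of 5 CPM in the higher group and had 3 within-number differences of the same sign; the 3 largest noncoding ones each way; up to 4 members of each of 26 lists that passed with at least 1 CPM; and the KDM5 family. Of 713 list entries 607 were tested. Members and lists were chosen with earlier results of these data known. A few genes named by this rule are not reported here. Alternatives were no block, the block nested in 12 libraries, median-of-ratios factors, library size alone, mitochondrial genes left out, other filters, DESeq2 1.42.0, limma-voom (limma 3.58.1), each number or library left out, a 2-fold minimum and, added after the data were seen, offsets for length and GC content.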

Additional observations from a re-analysis of the deposited data

Results flagged for a closer look

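The knockout effect differed between parental and resistant cells, by a test of the difference with a block for the number, in 274 genes. Among named genes the difference (parental minus resistant, log2) was positive for CCL2 (4.47), PSG5 (3.90), OR7E19P (3.48), ADM (2.76), CCDC80 (2.75), GDF6 (2.71), CCN2 (2.46), ANKRD1 (2.06), GJA1 (1.61) and NFKBIZ (1.56). It was negative for BX640514.2 (-5.08), ST8SIA4 (-4.65), TNFRSF11B (-3.24), ESPN (-2.93), LCN2 (-2.64), PDE3A (-2.55), HR (-2.54), CDKN1A (-1.65), JUNB (-1.54), MIR100HG (-1.47), SAMD9 (-1.34) and SPRY2 (-1.34). LCN2 was higher in the knockout of both backgrounds, and its negative value reflects the larger change in resistant cells. Without the block none of these 22 genes passed; the smallest adjusted p of edgeR's test among them was 0.207.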

How the results depend on the processing

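With the number as a block 1206 genes passed in parental cells. Without the replicate block 0 passed in the 6 libraries or in all 12, also when any single library was left out (0 to 0), and with the replicate block nested in all 12 libraries 154 passed, 139 of them among the 1206. The count was 2048 of 35305 genes with a filter of 1 count, 793 with the GC and length offsets, 289 with a 2-fold minimum and 195 to 2469 when both libraries of a number were left out. Library size alone gave 440 higher and 890 lower genes, against 553 and 653 with TMM, and moved the median of all genes to -0.05. Median-of-ratios factors, leaving out mitochondrial genes, at least 1 CPM in 3 libraries, DESeq2 and limma-voom gave 1071 to 1304.

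KDM5A lost its call without the replicate block (-0.91 in 6 libraries, -0.92 in 12) and ran from -1.15 to -0.70 with a number left out. Without the block and without 1 knockout library (1, 2, 3) it was -1.02, -0.93 and -0.78, and without 1 parental library -1.02, -0.85 and -0.85. In resistant cells the count of 939 became 38 with no replicate block, 1745 with a filter of 1 count and 252 to 1582 with a number left out. The 274 genes whose effect differed became 5 with no replicate block, 442 with library size alone, 609 with a filter of 1 count and 42 to 226 with a number left out. The mitochondrial difference ran from 2.07 to 5.85 points.

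Signs reversed for named genes mainly in fits without the block that left out a library. Without parental library 3 these were ST8SIA4 (0.017), SLC14A1 (0.65), MMP10 (0.40), SAMD9 (0.35), VIM (0.21), MMP2 (0.13), TOP2A (0.057), KDM5C (-0.013) and 1 further gene (1.71). Without knockout library 2 they were ANKRD1 (-0.088), AEN (-0.18) and KDM5C (-0.10), without knockout library 1 LCN2 (-0.30), and without knockout library 3 CDC6 (-0.14) and KDM5B (0.24). KDM5B was 0.17 without parental library 2 and, with the block, ran from -0.37 to 0.098 with a number left out. KDM5C was -0.029 without parental library 1, -0.024 with library size alone and, with the block, from -0.022 to 0.11 with a number left out. The causes were not tested. These depths leave genes of a few CPM, such as USP18, with wide errors.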
